A study of Caenorhabditis elegans with 2 samples.

Results

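The X chromosome held 299 of the 2182 regions bound by eGFP-LSY-2 in L2 larvae of Caenorhabditis elegans (13.7%, 95% Wilson interval 12.3 to 15.2%). LSY-2 is a C2H2 zinc finger protein known for making the left and right ASE taste neurons differ, and its own gene lies on X. The members are all X-linked entries of the authors' list thresholded by IDR, the irreproducible discovery rate, which scores the agreement between replicate rankings, and no other measured value was used to choose them. The comparison set is the 1883 regions on autosomes I to V of the same list. The animals were of strain OP240, which carries unc-119(ed3) on chromosome III and the insertion wgIs240, a transgene for a GFP-tagged LSY-2; both replicates share this genotype. Whole larvae of pooled sex were used, so hermaphrodites, with a pair of X chromosomes, and males, with a single X, were not kept apart. The share of males is unknown here, and no tissue can be assigned to a region. There were 2 biological replicates in 1 group, and no other strain or stage was analysed here. The antibody field of the labels names lsy-2 itself, whereas their description names the eGFP fusion, so which of these the antibody bound is not settled by the labels. Coordinates are those of ce11, counted from 1. Signal is the value that the authors' caller gave each region, on a scale not given in the sources used here. Read depth is unknown, so intervals and tests rest on numbers of regions, genes or motif copies alone and cover counting error only.

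In C. elegans the X chromosome is regulated as a whole. In hermaphrodites a condensin-like dosage compensation complex binds both X chromosomes and lowers their transcription; SDC-2 brings it to recruitment elements on X, which carry a motif that is enriched on X and has GCGCAGGG as its core. The X chromosome is poor in genes for basic cellular machinery and carries a large part of the worm's tRNA genes, which RNA polymerase III transcribes from promoters inside the gene.

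Of the 4 motifs searched, the core GCGCAGGG had the odds ratio between X and autosomal regions that was furthest from 1, and 14 of the 17 X regions that held it near the summit lay outside promoter windows. The sequences around 5 of the strongest such summits outside promoter windows are shown because they carry this finding, from the RefSeq copy of WBcel235, each 121 bases centred on the summit and 5′ to 3′ on the strand named, with the core in capitals in either orientation.
Intergenic region near W02H3.3, X:11094123-11094243, minus strand: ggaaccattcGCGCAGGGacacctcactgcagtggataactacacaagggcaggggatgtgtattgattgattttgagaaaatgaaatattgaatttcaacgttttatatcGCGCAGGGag
Intron of mom-1, X:6296497-6296617, plus strand: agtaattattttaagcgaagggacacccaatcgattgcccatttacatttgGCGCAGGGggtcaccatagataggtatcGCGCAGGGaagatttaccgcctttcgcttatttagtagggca
Intergenic region near F20B6.9, X:4209202-4209322, minus strand: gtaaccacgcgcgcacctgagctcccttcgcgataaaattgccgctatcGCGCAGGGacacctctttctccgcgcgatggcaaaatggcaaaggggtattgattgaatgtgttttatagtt
Intron of Y41G9A.17, X:2997040-2997160, minus strand: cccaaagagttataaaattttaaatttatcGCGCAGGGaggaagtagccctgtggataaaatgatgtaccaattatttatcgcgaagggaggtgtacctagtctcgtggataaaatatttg
Intergenic region upstream of xol-1, X:8036349-8036469, plus strand: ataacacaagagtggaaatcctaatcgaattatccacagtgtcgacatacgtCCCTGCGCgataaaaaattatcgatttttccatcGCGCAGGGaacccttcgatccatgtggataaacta

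X regions of other kinds are shown for contrast. The 2 strongest X regions in promoter windows without the core are given in the same way. Capitals mark 6-base words among 15, ranked after the data were seen, whose share of windows within 50 bp of X summits was highest relative to windows 300 bp to each side; the second sequence holds none.
Promoter window of serp-1.1, X:15841217-15841337, plus strand: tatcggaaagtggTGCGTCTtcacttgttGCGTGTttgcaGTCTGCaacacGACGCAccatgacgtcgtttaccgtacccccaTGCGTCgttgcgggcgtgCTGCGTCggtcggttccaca
Promoter window of rpl-11.2, X:2242932-2243052, plus strand: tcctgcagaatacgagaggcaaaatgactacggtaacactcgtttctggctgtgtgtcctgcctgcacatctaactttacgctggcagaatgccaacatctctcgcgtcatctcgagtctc
The strongest X region beside a tRNA gene is given from 30 bases before its summit to the end of the gene, with the tRNA gene in capitals.
tRNA gene WBGene00023110, X:3036091-3036235, plus strand: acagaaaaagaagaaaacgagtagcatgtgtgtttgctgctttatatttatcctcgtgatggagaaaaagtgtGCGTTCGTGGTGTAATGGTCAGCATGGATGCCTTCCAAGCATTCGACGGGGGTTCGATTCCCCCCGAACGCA

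The core GCGCAGGG lay within 50 bp of the summit in 14 of 299 X regions (4.68%) and in 1 of 1883 autosomal regions (0.0531%), with an odds ratio of 92.4 (Fisher's exact test, two-sided and added after the data were seen, adjusted over 4 motifs, p = 3.32e-11). Both strands were searched. The same letters were in 1 of 598 windows of this length beside the X regions (0.167%) and in 0.0388% of all 101 bp windows along X. The window of 100 bp to each side of the summit held the whole core in 17 X regions (5.69%) and in 2 autosomal regions (0.106%). In each replicate's own 2182 strongest regions the core lay within 50 bp of 4.65% of X summits and 0% of autosomal summits in replicate 1, and of 4.79% and 0.0529% in replicate 2.

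Counted from the motif instead of from the region, the X chromosome carried 81 copies of GCGCAGGG (4.57 per Mb) and the autosomes 233 (2.82 per Mb). A summit lay within 100 bp of the midpoint of 22 of the X copies (27.2%) and of 3 of the autosomal copies (1.29%), a rule that also takes copies reaching past the edge of the window used above, with an odds ratio of 28.6 (Fisher's exact test, two-sided p = 1.25e-11, also added after the data were seen). Copies were the units of that test although some shared a summit, as 4 X regions held 2 or more copies. The other 59 X copies had no summit within that distance. The 22 X copies beside summits shared further letters that the search had not required. In 68.2% of them the base just before the core was C, against 21.2% of the other 292 copies in the genome, and in 68.2% the base before that was T, against 33.2%. An A followed the core directly in 81.8%, against 32.5%. Their most frequent letters read TCGCGCAGGGA around the core. The 292 copies compared were all 233 autosomal copies and the 59 X copies without a summit within that distance. The contrast thus cannot tell a trait of copies beside summits from a trait of X copies.

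**Figure D1:**
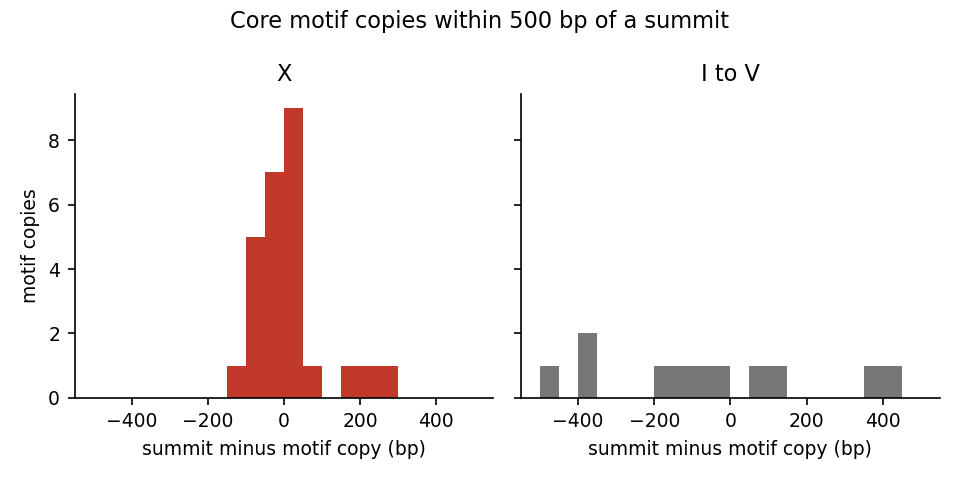
Distance from each copy of the core motif to the nearest eGFP-LSY-2 summit, for copies within 500 bp of one, in bins of 50 bp, with X on the left and autosomes I to V on the right; positive distances are on the 3′ side of the motif and the vertical axis counts motif copies. On X 16 copies lie within 50 bp of a summit and on the autosomes 1 does.

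The 17 X regions with the whole core within 100 bp included many of the strongest on the chromosome. Their signal had a median of 425 and ran between 75.4 and 745, against a median of 72.2 for the other 282 X regions. Of the 17 regions, 10 (58.8%) were among the 200 strongest of the whole list, against 13 of 282 (4.61%) X regions without the core, with an odds ratio of 29.6 (Fisher's exact test, two-sided p = 1.23e-08, added after the data were seen). In the separate replicates their medians were 258 in replicate 1 and 169 in replicate 2. All 17 overlapped a region among the 2182 strongest of each replicate, as did 72.7% of the 128 X regions counted under promoter windows and 76.5% of the 51 beside tRNA genes. Overlap was judged by signal rank and all 17 ranked 1229 or better in the list, so this contrast is not separate from their signal. At a cut of 200, chosen after the values were seen, 12 regions were above it and 5 were between 75.4 and 125.

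By position, 11 of the 17 regions were intergenic, 2 intronic, 1 in a coding exon and 3 in promoter windows. The strongest (X:11093954-11094428) had a signal of 745, with 475 in replicate 1 and 263 in replicate 2, and lay 4003 bp from the nearest annotated 5′ end, that of W02H3.3, a gene to which the annotation used here gives no name of function. Its 2 copies of the core can be read in the first sequence above. The region in an intron of mom-1 (X:6296326-6296793), which encodes the Porcupine-type enzyme that lipid-modifies Wnt ligands, had a signal of 670, with 439 and 225 in replicates 1 and 2, and also held 2 copies. The intergenic region upstream of F20B6.9 (X:4209062-4209488) reached 640, with 368 and 274. The intronic region of Y41G9A.17 (X:2996879-2997386) reached 613, with 415 and 189.

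One core region lay 4904 bp upstream of xol-1, the switch gene that reads the X-to-autosome ratio and represses the hermaphrodite dosage compensation genes when it is active. It spanned X:8036154-8036694 and had a signal of 549, with 334 in replicate 1 and 214 in replicate 2, and 2 copies of the core in opposite orientation. Further core regions lay 3902 bp from the 5′ end of gtr-1 (signal 513), 2564 bp from that of F22H10.2 (522) and inside a coding exon of pks-1, a polyketide synthase gene (425). Of the core regions in promoter windows, that of nspc-17, of a nematode-specific peptide family, had a signal of 691 and that of ins-39, an insulin-like peptide gene, 395, with summits 749 and 608 bp upstream of the 5′ end. The remaining one, at R04E5.9, had a signal of 87.1.

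Inexact copies were looked for with the 12 letters TCGCGCAGGGAA, allowing 2 mismatches, a pattern drawn from these regions and so only a description of them. It matched within 100 bp in 15 of the 17 core regions, in 8 of the other 282 X regions (2.84%), in 34 of the 1883 autosomal regions (1.81%) and in 3 of the 598 windows beside X regions (0.502%). Among the 15 X regions in the top 200 that lay outside promoter windows, 11 held it, of which 8 had the exact core. Without the exact core, 7 intergenic X regions were still in the top 200. The strongest of them lay 6055 bp upstream of K02D3.1 and had a signal of 639, with 403 in replicate 1 and 239 in replicate 2, and the next, 2529 bp from the 5′ end of ZK899.6, had 573, with 368 and 200. Those nearest F55G7.5 (548), T27A8.7 (534) and fbxb-58, named for an F-box family (385), matched the 12 letters within 2 mismatches. The region nearest F19H6.5 (460) had an exact core within 200 bp of its summit, and the last was nearest ZC53.1 (348). No list of dosage compensation sites and no data on that complex were used here, so the matches are letters in the genome and not shown to be bound by it.

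**Figure D2:**
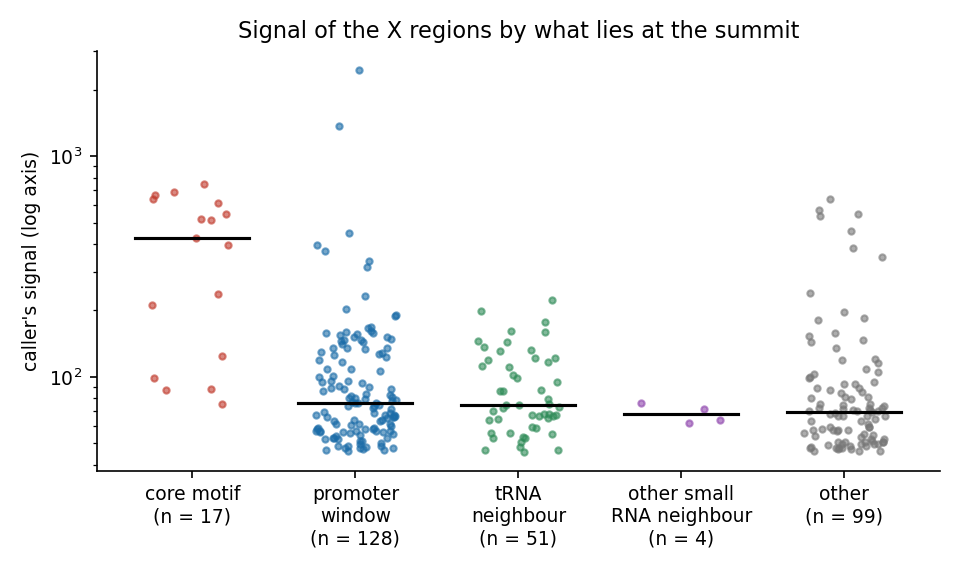
Signal of each X region on a log axis, sorted by what lies at the summit (the core motif within 100 bp, then a tRNA or other small RNA gene within 200 bp, then a promoter window, then any other position); bars mark medians. The 17 core regions have a median of 425 and the promoter, tRNA, other small RNA and other regions have medians of 76.2, 74.2, 67.9 and 69.4.

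X summits sat less often at the starts of protein-coding genes. A promoter window, which began 1000 bp before a gene's annotated 5′ end and ended 200 bp after it, held 141 of 299 X summits (47.2%), against 67.4% of autosomal summits and 63.9 to 70.7% on each of the 5 autosomes (Fisher's exact test, two-sided, adjusted over 5 classes, p = 7.59e-11). Intergenic positions held 104 X summits (34.8%) and 282 of 1883 autosomal summits (14.98%, between 11.7 and 18.9% by chromosome), with an odds ratio of 3.03 (Fisher's exact test, two-sided, adjusted over 5 classes, p = 6.56e-14). Intergenic bases were also more frequent on X, at 32.3% of the chromosome against 23.5% of the autosomes, and promoter-window bases less so, at 17.6% against 22.3%. Introns held 17.4% of X summits and 15.3% of autosomal ones, which did not pass the test (Fisher's exact adjusted p = 0.433). No X summit lay in a UTR outside promoter windows, which allows a share of up to 1.27% by the Wilson interval, against 29 autosomal summits (1.54%; Fisher's exact adjusted p = 0.0429). That UTR call was lost with a promoter window of 2000 bp, in the upper 50% of regions by signal and without small RNA neighbours. The median X summit lay 1003 bp from the nearest 5′ end of a protein-coding gene, against 293 bp on the autosomes.

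**Figure D3:**
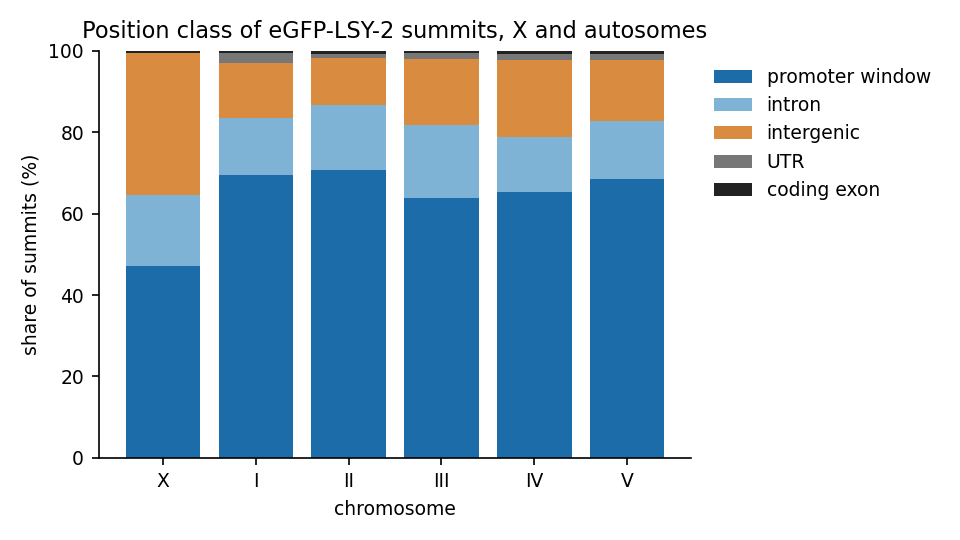
Share of summits in each position class, in percent, for X at the left and autosomes I to V to its right. The promoter-window share is 47.2% on X and between 63.9 and 70.7% on the autosomes, and the intergenic share is 34.8% on X and between 11.7 and 18.9% on the autosomes.

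The X promoter summits served mostly single genes. The 141 summits lay in the windows of 150 of the 2731 X-linked protein-coding genes (5.49%), against 9.85% of all nuclear protein-coding genes, 5.61% of those on chromosome V and 9.42 to 16.4% on the other 4 autosomes, and 128 of the 141 served 1 gene. When each summit was given to its closest gene start up to 5 kb away, 246 X genes (9.01%) and 9.56% of autosomal genes were served. Only 13 of the 141 (9.22%) lay in a window shared by genes on opposite strands, against 516 of 1270 autosomal promoter summits (40.6%, between 35.2 and 43.1% by chromosome), with an odds ratio of 0.148 (Fisher's exact test, two-sided p = 1.93e-15). Opposite-strand windows were themselves rarer on X, making up 3.76% of promoter-window bases against 10.7% on the autosomes. Signal in promoter windows was lower on X, with a median of 76.0 against 96.9, and 41.1% of X promoter summits against 58.3% of autosomal ones were above the median of the whole list (two-sided Fisher's exact test added after the data were seen, adjusted over 4 subsets, p = 0.000437). Intergenic X regions had a median of 75.5 against 69.2 on the autosomes and the difference in that share did not pass the test (46.2% against 35.1%, Fisher's exact adjusted p = 0.117).

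The strongest X region of all was in the promoter window of serp-1.1, which encodes a small endoplasmic reticulum protein related to stress-associated RAMP4. It had a signal of 2466, with 1422 in replicate 1 and 1046 in replicate 2, and its summit was 295 bp upstream of the 5′ end. The next was rpl-11.2, a gene for ribosomal protein L11, with a signal of 1377, and 813 and 562 in the replicates. These were 2 of 8 promoter-window regions among the 23 X regions in the list's top 200. T14G11.1 had a signal of 450 and the window shared by dnj-14, a DnaJ-domain co-chaperone gene of the cysteine string protein type, and glit-1, a gliotactin homolog, 396. Chosen after their values were seen, hsp-3, an endoplasmic reticulum chaperone of the BiP type, had 373, and the window shared by trap-2, a translocon-associated protein, and ile-2, a lectin of the secretory pathway, had 335. Of the autosomes' 177 regions in the top 200, 160 (90.4%) lay in promoter windows.

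Of 6 X-linked dosage compensation and X-counting genes, 2 had a summit in their window, against 5.49% of all X genes; the difference was not tested. ceh-39, a homeobox gene that acts as an X signal element, had a summit 199 bp upstream of its 5′ end with a signal of 93.6, and 68.9 and 26.4 in the replicates. sdc-2, whose product recruits the dosage compensation complex to X, had one 500 bp upstream, with a signal of 72.6, and 47.2 and 31.1 in the replicates. The counting genes fox-1 and sex-1, the complex member sdc-1 and xol-1 had none in their windows, and the nearest summit lay 27.2 kb from the 5′ end of fox-1, 7.94 kb from that of sex-1, 22.7 kb from that of sdc-1 and 4.904 kb from that of xol-1. On the autosomes 4 of 8 members of this list had a summit, against 10.5% of all autosomal genes. lsy-2 itself lay 124.7 kb from the nearest X summit.

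The lists of housekeeping genes had few X members, and their counts stand beside shares of 5.49% over all X genes and 10.5% over all autosomal genes, with no test. Ribosomal protein genes had a summit at 1 of 2 X members (rpl-11.2) and at 68 of 81 autosomal members. Translation factors had 2 of 3, with eef-1A.2, an elongation factor 1 alpha gene, at 189 and ife-2, a cap-binding eIF4E gene, at 56.8. The respiratory chain had 2 of 3, with ucr-2.2, of complex III, at 76.1 and sdha-1, of complex II, at 76.0. The sdha-1 summit also lay within 200 bp of a snoRNA gene. Chaperones had 3 of 5, with dnj-7 at 47.3 beside dnj-14 and hsp-3. On the autosomes 24 of 37 translation factors, 26 of 50 respiratory chain genes and 19 of 54 chaperones had a summit. Mitochondrial ribosomal proteins, aminoacyl-tRNA synthetases and proteasome subunits had no X members.

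Lists of genes with specialised expression varied around the 5.49% of all X genes with a summit, and their counts were not tested. None of 20 potassium and calcium channel genes, 7 acetylcholine receptor genes, 34 chemoreceptor genes and 5 vitellogenin genes had one. Autosomal members of these lists had 0 of 45, 0 of 22, 11 of 1331 and 0 of 1, in the same order. The homeobox list had 1 of 25 (ceh-39) and the neuropeptides and insulins 1 of 34 (ins-39). Of 4 synaptic genes, syd-2, a liprin-alpha scaffold of the active zone, had one (90.2). Of 10 muscle genes it was act-4, an actin (52.8), and of 30 cuticle collagens col-185 (53.3). The col-185 summit lay inside tRNA gene WBGene00014413 and is counted below among the tRNA regions. Nuclear hormone receptors had 5 of 27 on X and 3 of 247 on the autosomes, and this count was not tested. nhr-1 was the strongest at 95.6, with 52.7 and 42.4 in the replicates, followed by nhr-255 at 64.9, nhr-3 at 55.9 and nhr-48 at 55.3. The remaining member had 46.2, near the lowest X signal of 45.8. The nhr-255 summit lay 592 bp upstream of that gene's 5′ end and 32 bp before tRNA gene WBGene00014626. It too is counted below among the tRNA regions.

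tRNA genes lay within 200 bp of 51 X summits (17.1%) and of 62 autosomal summits (3.29%, between 2.44 and 3.83% by chromosome), with an odds ratio of 6.04 (Fisher's exact test, two-sided, adjusted over 5 RNA classes, p = 2.09e-16). X also carries 45.1% of the nuclear tRNA genes, and counted per gene, 56 of 276 X tRNA genes (20.3%, Wilson interval 15.97 to 25.4%) and 66 of 336 autosomal ones (19.6%) had a summit within 200 bp, with an odds ratio of 1.04 (Fisher's exact test, two-sided p = 0.84, added after the data were seen). At 34 of the 51 X regions the summit was upstream of the tRNA gene's 5′ end, at a median of 31 bp before it, and at 15 it was inside the gene. Signals ran between 45.8 and 224 with a median of 74.2, close to the 74.3 of autosomal tRNA regions, and no X tRNA region was among the top 200. The strongest, beside WBGene00023110, had 224, with 141 and 81.5 in the replicates. tRNA genes share near-identical copies, and how the authors treated reads that fit several of them was not given in the sources used here. snoRNA genes, by contrast, were near 3 X summits (1.00%) and 72 autosomal summits (3.82%; Fisher's exact adjusted p = 0.0237), and 3 of 33 X snoRNA genes against 72 of 313 autosomal ones had a summit (9.09% and 23.0%; Fisher's exact adjusted p = 0.303). No X summit was near a miRNA gene, against 7 of 1883 autosomal summits (0.372%), which did not pass the test (Fisher's exact adjusted p = 0.709). Outside promoter windows, 45 of 158 X summits (28.5%) and 18.8% of 613 autosomal ones were within 200 bp of a small RNA gene of any of the 5 classes (Fisher's exact test, two-sided p = 0.0111), a call that was lost in the upper 50% of regions by signal (30.8% against 24.2%, Fisher's exact p = 0.334).

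The typical X region had a lower signal than the typical autosomal one. Their median signal was 74.2 (quartiles 57.1 and 122), against 85.1 (59.8 and 145) on the autosomes, and 123 of 299 (41.1%) were above the list's median, against 968 of 1883 (51.4%), with an odds ratio of 0.661 (Fisher's exact test, two-sided, adjusted over 2 cut-offs, p = 0.00236). That call was lost in the upper 50% of regions by signal, taken against their own median (48.8% against 50.1%, Fisher's exact adjusted p = 0.902). Among the 200 strongest of the list were 7.69% of X and 9.40% of autosomal regions, which did not pass the test (Fisher's exact adjusted p = 0.389). In the separate replicates X medians were 45.3 and 31.8 and autosomal medians 50.1 and 36.6. An overlap with the 2182 strongest regions of both replicates was found for 219 X regions (73.2%) and for 77.4% of autosomal regions; replicate 2 alone supported 81.3% and 86.4%, replicate 1 90.6% and 89.6%.

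**Figure D4:**
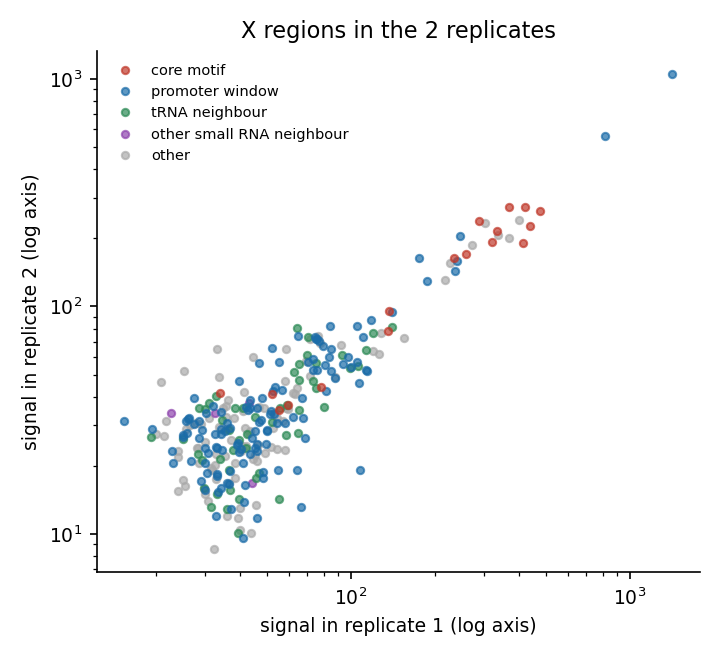
Signal of each X region in replicate 1 (horizontal, log axis) and replicate 2 (vertical, log axis) for the regions with a value in both, coloured by what lies at the summit. The 2 highest points are serp-1.1 and rpl-11.2, and 10 of the 17 core regions are among the 23 X regions in the list's top 200.

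The X share depended on how far down the ranking regions were taken. Before thresholding, 5445 of 30000 listed regions (18.15%) were on X, close to X's 17.7% of the assembly. That longer list holds peaks and background together, and 5.49% of its X regions and 7.67% of its autosomal ones passed the threshold. In the thresholded list the X share was 13.7%, close to X's 13.7% of the nuclear protein-coding genes. Among the 200 strongest 11.5% were on X, among ranks 201 to 500 9.33%, and among ranks 10001 to 20000 19.3%. Both replicates had this course separately, with 11% of the top 200 of each on X. The last X regions inside the list had signals of 46.1, 45.9 and 45.8 and the first outside 45.8, 45.7 and 45.6.

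**Figure D5:**
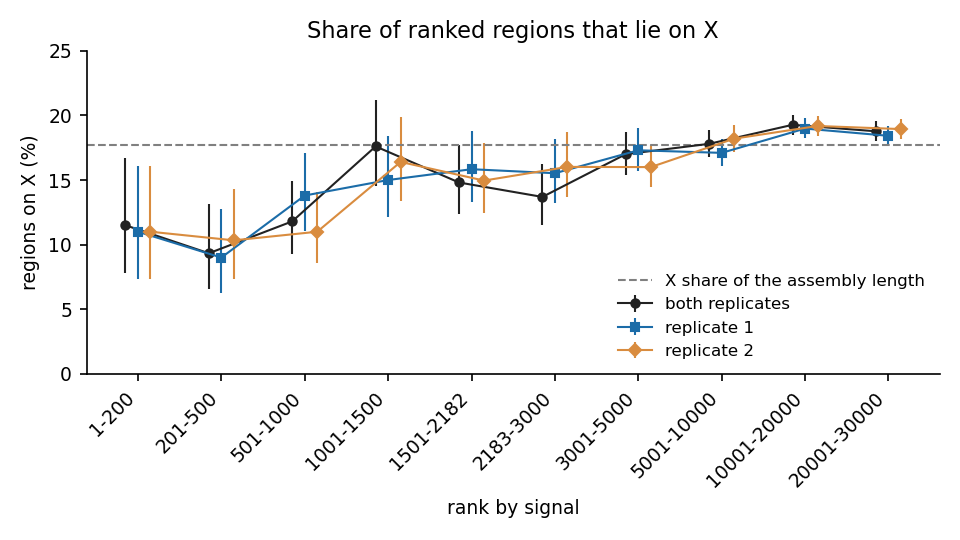
Share of regions on X, in percent, in consecutive bins of the ranking by signal for both replicates together and for each replicate, with 95% Wilson intervals; the dashed line is X's 17.7% of the assembly length. The share is 11.5% in the top 200 of both replicates together and 19.3% at ranks 10001 to 20000.

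Of 3 equal parts of X, the right was the densest, with no test. The left held 101 regions (17.1 per Mb), the central 78 (13.2) and the right 120 (20.3). Bins of 1 Mb held 9 to 26, and the fullest lay at 14 to 15 Mb (26) and at 1 to 2 Mb (25). X had 16.9 regions per Mb, above chromosome V (13.3) and below the other 4 autosomes (19.4 to 33.2). The core regions were 9, 4 and 4 in the left, central and right parts, and tRNA regions 16, 14 and 21. The longest interval without a summit, X:3803499-4148342, ran over 344843 bp and held the 5′ ends of 40 protein-coding genes.

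Base composition at X summits was richer in G and C than around them, at 49.0% within 50 bp against 34.6% in the windows 300 bp to each side; on the autosomes it was 46.4% against 35.9%. Of the other motifs searched, on both strands, GAGAGA lay within 50 bp of 26.8% of X and 25.2% of autosomal summits and did not pass the test (Fisher's exact adjusted p = 0.567), whereas within 100 bp it lay at 48.2% and 36.96% and passed (Fisher's exact adjusted p = 0.000347). CGCG was less frequent on X (38.1% against 47.4%, Fisher's exact adjusted p = 0.00363), as was TTTTTT (16.1% against 25.4%, Fisher's exact adjusted p = 0.000697). All X 101 bp windows held GAGAGA at 4.91%, CGCG at 8.33% and TTTTTT at 40.6%.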

How the data were processed

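ChIP-seq of eGFP-LSY-2 was analysed in 1 group of 2 biological replicates. Regions were called on ce11 and ce10 and thresholded by IDR, per the deposited lists; aligner, caller and versions: not given in the sources used here. No control reads were analysed here. Region strength is the deposited signal value of the authors' caller. The authors' deposited −log10 q-values were not used, since 97.0% of X regions shared the highest one, 3.63.

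Each ce11 summit was classed against Ensembl release 115 genes on WBcel235 in the order promoter window, coding exon, UTR, intron, intergenic. X and autosomal regions were compared by two-sided Fisher's exact tests with Benjamini-Hochberg adjustment within each kind of test (Python 3.11.15, scipy 1.17.1), which treat regions of 2 libraries as units and say nothing of other animals. The promoter class, the share test and the search for tRNA neighbours were tried on simulated data. The motif search, signal comparisons and replicate overlap were not. Replicates were judged by overlap with their own 2182 strongest regions. Members, lists, motifs and named genes (genes of the 20 strongest X summits, up to 4 X members with a summit per list, dosage compensation genes, lsy-2) were chosen with earlier results of these data known. Alternatives were other windows and distances, the upper 50% by signal, the ce10 list, autosomes without V, and each replicate alone. For some results small RNA neighbours or core regions were also left out.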

Additional observations from a re-analysis of the deposited data

How the results depend on the processing

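The promoter-window, intergenic, opposite-strand, tRNA and core-motif differences between X and the autosomes kept their direction and passed the test under every alternative run for them, including each replicate's own strongest regions. Leaving out a replicate put the share of regions on X between 13.4 and 13.8% (13.7% with both). Among the upper 50% of regions by signal that share was 11.3%, 61 X genes had a summit in place of 150, the UTR difference was -1.24 percentage points (Fisher's exact adjusted p = 0.476), that in small RNA neighbours outside promoter windows 6.54 points (Fisher's exact p = 0.334, against 9.72 points and 0.0111 in all regions), and that above the list's median -1.32 points (Fisher's exact adjusted p = 0.902). The difference among the 200 highest turned there to 0.414 points. In all regions but those with the core it was -5.33 points (Fisher's exact adjusted p = 0.00277), against -1.71 points with them. With a 2000 bp promoter window the UTR difference was -1.12 points (Fisher's exact adjusted p = 0.127), and without small RNA neighbours -1.63 points (Fisher's exact adjusted p = 0.0678). Giving each summit to its closest gene start, up to 5 kb away, 246 X genes were served (9.01%, against 9.56% of autosomal genes). Against the 5000 strongest regions of each replicate, 96.0% of X regions were supported. The coding-exon difference, -0.0746 points on 2 X summits, was between -0.452 and 0.813 when a replicate was left out, and turned to 0.503 in the upper 50%, 0.0316 with the 2000 bp window and 0.179 without small RNA neighbours. Within 100 bp of the summit GAGAGA differed by 11.2 points (Fisher's exact adjusted p = 0.000347). The cause of these shifts was not tested. No paired analysis was possible because there was 1 group. Read depth is unknown, so counting error of the signal values could not be given.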

Other observations

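Among 6-base words present in at least 10% of X summit windows, those with the highest ratio to the windows beside them were ACGCAG, in 13.04% of X windows against 1.17% of those beside them, and ACGCGC, in 14.05% against 1.34%. At autosomal summits the same words were in 17.7% and 16.2% of windows. Words were counted with their reverse complement and ranked after the data were seen. AGGGAG, which starts with the last letters of the core, was in 12.7% of X windows and 4.30% of autosomal windows.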
